A study of Homo sapiens with 4 samples.

Results

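The 81 cytosolic ribosomal protein genes described here are the rows of the deposited count table whose names carry the standard RPL or RPS symbol, together with RPSA, RPLP0, RPLP1 and RPLP2, out of 59384 gene names in all. They comprise 46 large-subunit genes, 31 small-subunit genes and 4 L paralogs (RPL3L, RPL10L, RPL39L and RPS27L). RNA was sequenced from Daoy cells, an established human medulloblastoma line, infected with shFABP4 lentivirus (genotype label FABP4 knockdown, 2 libraries) or with pLKO lentivirus (genotype label WT, 2 libraries). All 4 libraries therefore came from virus-infected cells of 1 line. FABP4 encodes a fatty acid binding protein best known from adipocytes. Whether the replicates were grown apart is not stated, and each p-value therefore reflects variation from library to library that can be technical in origin.

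The cytosolic ribosome is built of a small subunit, which reads the mRNA, and a large subunit, which joins the amino acids. Each ribosome takes a single copy of nearly every ribosomal protein, the stalk proteins RPLP1 and RPLP2 being the exception, so the genes are usually expressed together. Most of their mRNAs begin with a C followed by a run of pyrimidines, the 5' terminal oligopyrimidine (TOP) tract, through which mTORC1 and LARP1 control their translation. Some members have a paralog with a more restricted pattern of expression, such as RPL3L in striated muscle and RPL10L and RPL39L in testis.

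The library labelled shFABP4 1 stood apart from the other 3. It held 2539862 counted fragments, against 20431660 in shFABP4 2, 8988961 in pLKO 1 and 13839885 in pLKO 2, yet 51762 gene names had at least 1 fragment in it, against 22350 to 25560 in the others. FABP4 counts did not follow the label there, with 14 fragments in the library labelled shFABP4 1 and 0 in shFABP4 2, against 1 in pLKO 1 and 6 in pLKO 2. Each of the other adipocyte markers was also highest in that library, from 13 fragments for ADIPOQ to 106 for PLIN1. Counts this low cannot show whether FABP4 was knocked down, and the part of background in the 14 was not tested. From 2656 protein-coding genes without a fragment in the other 3 libraries, 54.5% of its fragments were estimated to be a background spread over the annotation in proportion to exon length. Adipocyte, endothelial and immune markers summed to 83.1, 195 and 84.7 CPM (fragments scaled to a common library total) in it, against at most 2.96 CPM in any other library. Of the lists used to check the cell type, 7 mesenchymal markers summed to 5085 and 22940 CPM in shFABP4, against 15120 and 15238 CPM in pLKO, S100A6 alone giving 2852 and 12107 CPM in shFABP4, against 10270 and 10323 CPM in pLKO, while COL1A2 had at most 1 fragment outside the library labelled shFABP4 1. The 6 epithelial markers summed to 692 and 3429 CPM in shFABP4, against 1957 and 1991 CPM in pLKO. The 12 neural progenitor and medulloblastoma markers summed to 453 and 79.2 CPM in shFABP4, against 21.1 and 23.2 CPM in pLKO: NES and GLI1 had fragments in every library, and ATOH1, BARHL1 and OTX2 had none outside the library labelled shFABP4 1. Most ribosomal protein genes stood clear of the background: it accounted for an estimated 2.19% of their fragments, and 70 of the 81 were at least 5 times above it. Results are given with and without this library, or on scales less exposed to that background. Where 2 values are given for shFABP4, the library labelled shFABP4 1 comes before shFABP4 2, and pLKO 1 comes before pLKO 2.

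Ribosomal protein mRNA took 4.59% of counted fragments in the library labelled shFABP4 1 and 17.6% in shFABP4 2, against 15.8% in pLKO 1 and 15.9% in pLKO 2. With the estimated background removed from its total and its genes, the library labelled shFABP4 1 stood at 9.87%. The pLKO libraries lay close together and the shFABP4 libraries lay on either side of them. The means were 11.1 ± 9.22% in shFABP4 and 15.8 ± 0.0824% in pLKO (SD, n = 2 each), a difference of -4.70 percentage points that an exact two-sided permutation test did not separate from 0 (p = 1, the smallest p allowed by 2 against 2 being 0.333). Without the library labelled shFABP4 1 the difference turned to 1.82 percentage points. A set of 1039 genes, called high-signal genes below, was chosen from their pLKO shares, with an expected signal at least 5 times the background. Observed counts can lie closer to it: the lowest among the set's ribosomal protein genes was 1.81 times background in the library labelled shFABP4 1. Measured against this set, the ribosomal protein genes stood at 29.9% and 30.2% in shFABP4, against 24.8% and 25.0% in pLKO. On that scale the 4 values fell into pairs by group. The reference genes were chosen from the same pLKO libraries, and 10 of the ribosomal protein genes lie outside that set. With library totals for scaling, the median log2 difference was -0.93 over the reference genes. It was -0.45 over the ribosomal protein genes among them. How much of the higher percentage in shFABP4 comes from that choice was not tested. In bulk RNA, a change in the number of cells of a type and a change in RNA per cell cannot be told apart.

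The balance between the subunits differed by group in all 4 libraries. Small-subunit genes made up 41.6% of the fragments of both subunits in the library labelled shFABP4 1 and 41.0% in shFABP4 2, against 45.4% in pLKO 1 and 45.5% in pLKO 2. The groups did not overlap, the exact 95% counting intervals being narrow (41.3 to 41.9% in the library labelled shFABP4 1, the shallowest). Subtracting the estimated background left its value at 41.7%. The difference of -4.14 percentage points rests on 2 libraries a group and was given no test; it needs no scaling between libraries, since both terms come from the same library. These intervals cover counting error only.

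**Figure D1:**
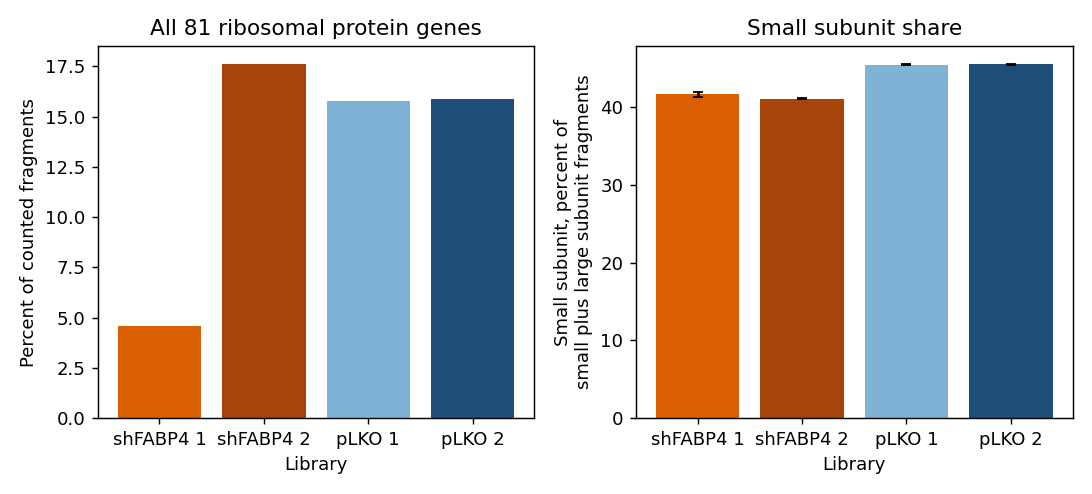
Left, summed fragments of the 81 ribosomal protein genes as a percent of all counted fragments in each library. Right, small-subunit fragments as a percent of small-subunit and large-subunit fragments, with exact 95% counting intervals. The library labelled shFABP4 1 is low on the left (4.59%), while on the right both shFABP4 libraries (41.6% and 41.0%) sit below both pLKO libraries (45.4% and 45.5%).

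Expressing each gene as a percent of all ribosomal protein fragments of its library showed how the mixture differed. Within pLKO the mixture was nearly identical: the median gene differed 1.02-fold between the libraries, and 0 of 79 genes differed over 2-fold. Between the shFABP4 libraries the median gene differed 1.39-fold and 10 genes differed over 2-fold, whereas from an shFABP4 to a pLKO library the median was 1.47-fold to 1.49-fold and 17 to 21 genes differed over 2-fold. Of all 81 genes, 36 had both shFABP4 shares above both pLKO shares, 22 had both below, and 23 did neither. Scaled in the same way, 50% of the 14735 genes tested lay above and 5.59% below, and among high-signal genes 24.2% lay above and 53% below, against 31 and 21 of the 71 ribosomal protein genes in that set. The large subunit had 22 genes above and 9 below, and the small subunit 13 above and 12 below. With the background subtracted the counts over all 81 were 34 above and 23 below.

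**Figure D2:**
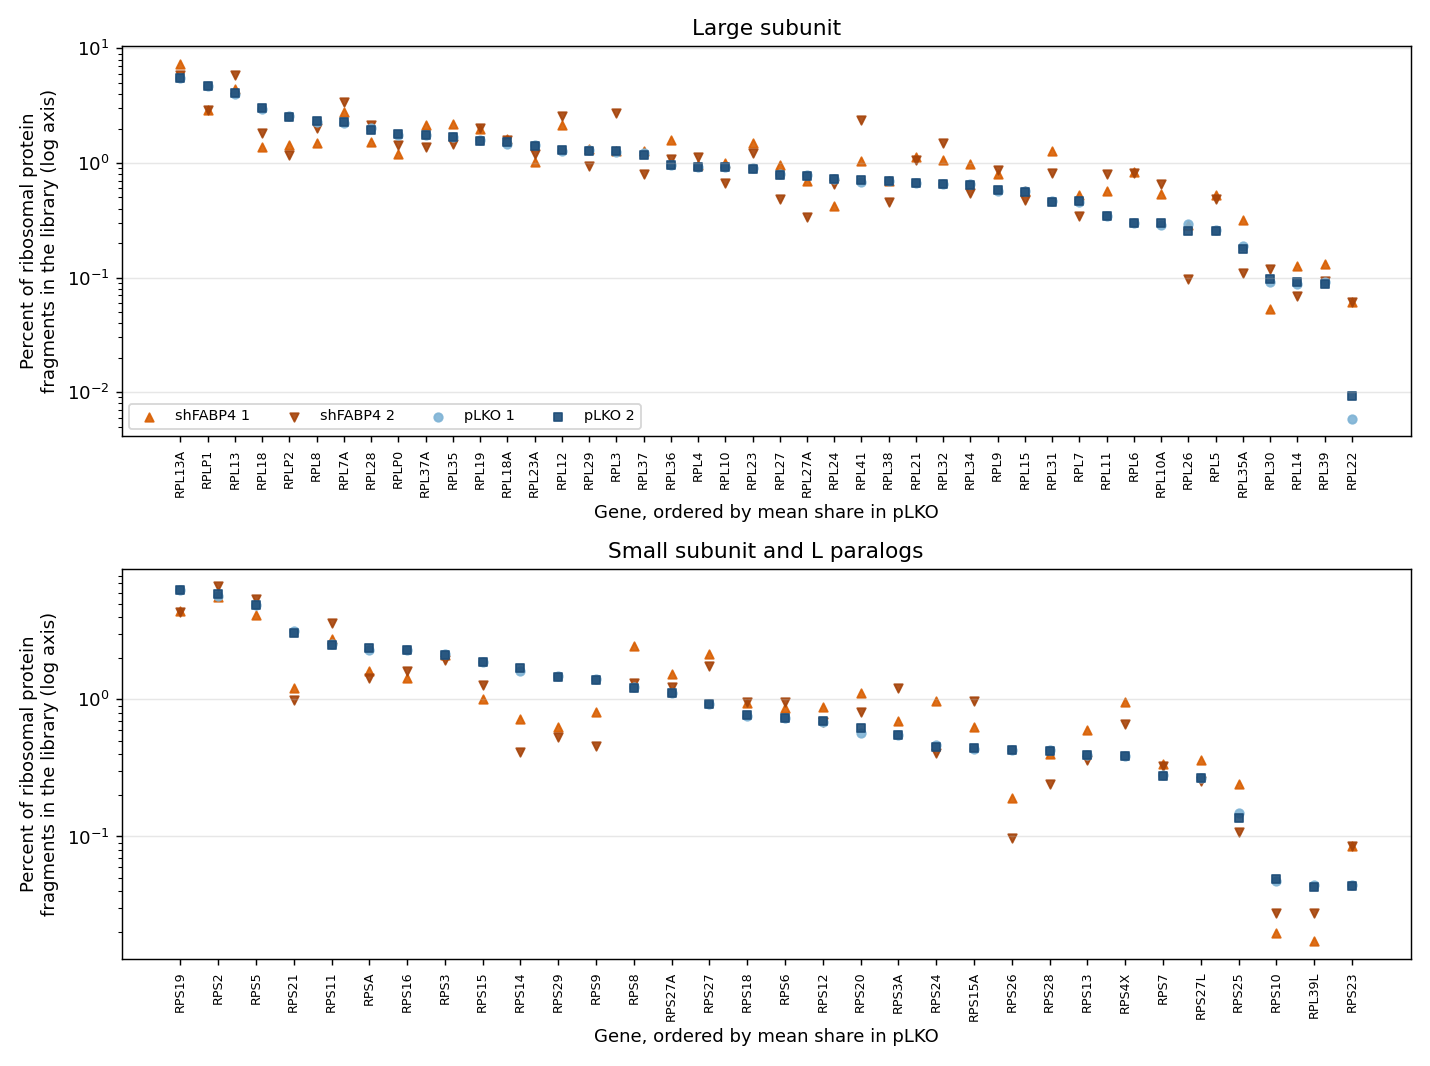
Share of each gene in all ribosomal protein fragments of its library, in percent on a log axis, genes ordered by mean pLKO share. Triangles are the shFABP4 libraries and circles and squares the pLKO libraries; genes with a mean under 200 fragments are not drawn. The pLKO symbols nearly coincide, while RPS21, RPS14, RPS29, RPS9 and RPS26 lie well below them in both shFABP4 libraries and RPL6, RPS27, RPS4X and RPL22 well above.

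The transcript starts of genes from both sides of this split are printed to show that a TOP tract occurs on each. They run from 30 bases before to 20 bases from the annotated start, 5' to 3', in RefSeq's GRCh38.p14, and capitals mark the unbroken run of pyrimidines from the first transcribed base where that base is C. The first 4 belong to genes with a lower share in shFABP4, RPS14 (chr5:150449720-150449769, minus strand), RPS21 (chr20:62387073-62387122, plus strand), RPS9 (chr19:54200828-54200877, plus strand) and RPS26 (chr12:56041888-56041937, plus strand). The last 4 belong to genes with a higher share in shFABP4, RPL31 (chr2:101002259-101002308, plus strand), RPS27 (chr1:153990732-153990781, plus strand), RPL22 (chr1:6199576-6199625, minus strand) and RPL10A (chr6:35468371-35468420, plus strand).
RPS14: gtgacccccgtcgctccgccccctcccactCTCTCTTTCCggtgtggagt
RPS21: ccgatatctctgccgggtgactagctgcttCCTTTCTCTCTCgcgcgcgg
RPS9: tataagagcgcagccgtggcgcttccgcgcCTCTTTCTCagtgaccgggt
RPS26: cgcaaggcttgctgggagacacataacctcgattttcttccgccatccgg
RPL31: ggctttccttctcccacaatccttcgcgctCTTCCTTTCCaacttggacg
RPS27: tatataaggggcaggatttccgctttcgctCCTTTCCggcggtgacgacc
RPL22: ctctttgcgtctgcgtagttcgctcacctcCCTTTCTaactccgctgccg
RPL10A: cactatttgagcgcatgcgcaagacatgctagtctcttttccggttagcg
RPS26 and RPL10A have no run from the annotated first base. A RefSeq start was matched for 64 of the 81 genes, and 46 of them (71.9%) began with C followed by at least 4 pyrimidines, against 5.14% of 27305 gene symbols with an entry. The tract was present in 18 of 27 genes with both shFABP4 shares above pLKO (66.7%) and in 15 of 19 with both below (78.9%). CCGGAAG, on either strand within 250 bases before to 50 after the start, occurred at 35.9% of ribosomal protein genes and at 12.2% of all symbols. TATAA, searched in the same way, occurred at 20.3% and 24.2%, and at 40 to 15 bases before the start on the gene's strand at 12.5% and 4.94%. These matches are descriptions of the letters in the windows.

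The 5 lowest estimates in shFABP4 against pLKO were all of the small subunit. On the scale of high-signal genes (CPM with effective library sizes set by those 1039 genes), RPS14, a protein of the platform whose loss marks the 5q- form of myelodysplasia, had 1963 and 1384 CPM in shFABP4, against 3983 and 4188 CPM in pLKO. RPS21 had 3327 and 3315 CPM in shFABP4, against 7728 and 7520 CPM in pLKO. RPS26, which lies at the mRNA exit channel, had 521 and 328 CPM in shFABP4, against 1053 and 1059 CPM in pLKO. For each of these the groups were apart, and the lowest pLKO value exceeded the highest shFABP4 value. RPS29, a zinc-binding protein of the head, had 1728 and 1770 CPM in shFABP4, against 3638 and 3592 CPM in pLKO. RPS9, an early-assembling protein of the body, had 2230 and 1525 CPM in shFABP4, against 3470 and 3413 CPM in pLKO. Neither gene had overlapping groups. The 5 genes were picked for low estimates in these same libraries, so their separation adds no support. On this scale 41.7% of the 1039 genes had both shFABP4 values below both pLKO values, as did 14 of the 71 ribosomal protein genes among them.

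In edgeR's quasi-likelihood test over the 1039 high-signal genes, 4 of the 71 ribosomal protein genes fell (5.63%, against 11.8% of all genes in that test), and these 4 were RPS26, RPS14, RPS21 and RPS29. RPS26 fell by 1.34 on the log2 scale (SE 0.27, edgeR adjusted p = 0.0490) and RPS14 fell by 1.29 (SE 0.24, edgeR adjusted p = 0.0419). RPS21 fell by 1.20 (SE 0.16, edgeR adjusted p = 0.0269) and RPS29 fell by 1.05 (SE 0.14, edgeR adjusted p = 0.0269). RPS9, at -0.88 (SE 0.25), did not pass (edgeR adjusted p = 0.0864). Subtracting the background left RPS21 and RPS29 past the threshold and took RPS26 (edgeR adjusted p = 0.0704) and RPS14 (edgeR adjusted p = 0.0623) past it no longer, whereas a correction for GC content and length lost RPS21 alone (edgeR adjusted p = 0.0681).

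Genes of both subunits were higher in shFABP4. RPL6, a large-subunit protein at the solvent-exposed side, had 2266 and 2752 CPM on the high-signal scale in shFABP4, against 731 and 748 CPM in pLKO. RPL31, which lies beside the peptide exit tunnel, had 3454 and 2707 CPM in shFABP4, against 1154 and 1128 CPM in pLKO. RPL5, which with RPL11 and 5S rRNA forms the particle that also binds MDM2, had 1427 and 1603 CPM in shFABP4, against 643 and 634 CPM in pLKO. Its partner RPL11 had 1568 and 2663 CPM in shFABP4, against 849.6 and 860.0 CPM in pLKO. Both of these were above pLKO in each shFABP4 library, RPL11 with the wider spread. In the small subunit, RPS27, a zinc-finger protein also called metallopanstimulin, had 5820 and 5835 CPM in shFABP4, against 2296 and 2317 CPM in pLKO. RPS4X, encoded on the X chromosome, had 2606 and 2203 CPM in shFABP4, against 958 and 956 CPM in pLKO. The shFABP4 libraries were close to each other for RPS27 and again lay apart from pLKO for both genes. RPL6, RPL31, RPL5 and RPL11 were named for high estimates or calls in these same libraries, so their separation adds no support. On this scale 34.6% of the 1039 genes had both shFABP4 values above both pLKO values.

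In the same edgeR test 9 of the 71 genes rose (12.7%, against 10.4% of all genes in that test), 6 of the large and 3 of the small subunit. RPL6 rose by 1.76 on the log2 scale (SE 0.17, edgeR adjusted p = 0.0250). RPL31 rose by 1.43 (SE 0.19, edgeR adjusted p = 0.0269), RPL10A by 1.35 (SE 0.25, edgeR adjusted p = 0.0419) and RPL5 by 1.25 (SE 0.13, edgeR adjusted p = 0.0256). RPL21 rose by 1.01 and RPL23 by 0.88 (edgeR adjusted p = 0.0322 and 0.0334). Of the small subunit, RPS27 rose by 1.34 (SE 0.16, edgeR adjusted p = 0.0260), RPS4X by 1.33 (SE 0.16, edgeR adjusted p = 0.0269) and RPS20 by 0.97 (SE 0.16, edgeR adjusted p = 0.0334). RPL11, at 1.31 (SE 0.31), did not pass (edgeR adjusted p = 0.0624). RPL41, the smallest ribosomal protein, had the second-highest estimate, 1.65 (SE 0.58, edgeR adjusted p = 0.124), from 2822 and 7940 CPM in shFABP4, against 1690 and 1755 CPM in pLKO, and its shFABP4 libraries were far apart. RPL3, which lies near the peptidyl transferase centre, showed the same split, with 3505 and 9019 CPM in shFABP4, against 3086 and 3157 CPM in pLKO.

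These 13 calls rest on the choice of scale and, like every call in that test, on both pLKO libraries. Of the 13, 9 passed after a correction for GC content and length, where edgeR called 7 of the 71 genes higher and 3 lower (against 8.47% and 7.8% of the 1039). With the background subtracted 11 of the 13 passed, and edgeR called 21 higher and 2 lower (against 15.2% and 15.1%). Without the library labelled shFABP4 1 the counts were 48 and 17 (against 45% and 46.4%). When pLKO 1 or pLKO 2 was left out, the pLKO group had no replicate and edgeR lost these and all other calls. Such a fit cannot set these 13 genes apart from the rest. The median of the 71 genes was 0.47 in each, against -0.06 and -0.05 over the 1039. None of the 71 passed when library totals were used for scaling, where edgeR called 0 of the 1039 higher and 2 lower. At an unadjusted p under 0.05 edgeR listed 0 and 1 of the 71 there, against 1 and 138 of the 1039. Over all 71 genes the median log2 difference was 0.46, against -0.05 over the 1039, and 41 genes had both shFABP4 values above both pLKO values on this scale (57.7%, against 34.6% of the 1039) and 14 had both below (19.7%, against 41.7%). Scaling to library totals moved the median of the 71 genes to -0.45 and that of the 1039 to -0.93. The 10 genes not in this set, because their expected signal was too close to the background, included RPL22, RPL36A, RPL3L and RPS10.

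**Figure D3:**
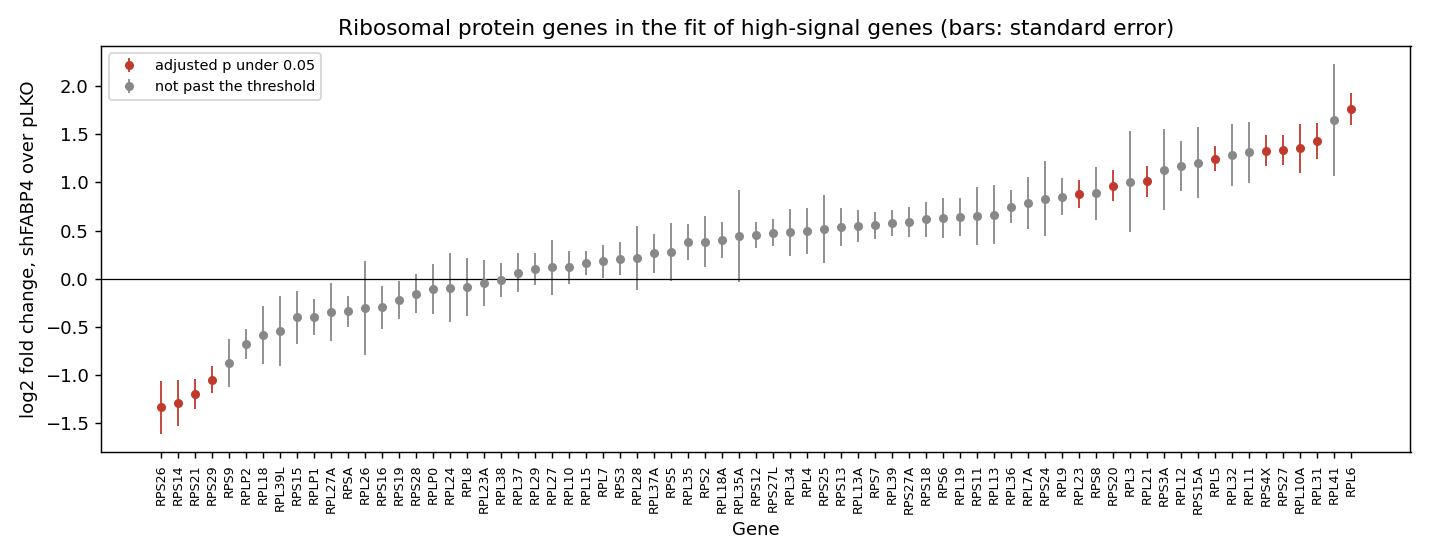
Log2 fold change of shFABP4 over pLKO for the 71 ribosomal protein genes among the high-signal genes, with standard errors, ordered by value; red marks an edgeR adjusted p under 0.05. The 4 small-subunit genes from RPS26 to RPS29 form the low end at -1.34 to -1.05, and 9 red genes, RPL23 to RPL6, run from 0.88 to 1.76.

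The P stalk, an RPLP0 base carrying RPLP1 and RPLP2 dimers, recruits the elongation factors to the ribosome. All 3 genes had a lower share of ribosomal protein fragments in shFABP4. RPLP1 took 2.92% and 2.88% in shFABP4, against 4.71% and 4.69% in pLKO. RPLP2 took 1.43% and 1.17% in shFABP4, against 2.55% and 2.50% in pLKO. RPLP0 took 1.20% and 1.45% in shFABP4, against 1.75% and 1.77% in pLKO. The stalk genes thus lay below pLKO in both shFABP4 libraries on the scale of shares. So did 53% of the 1039 high-signal genes scaled in the same way, and 21 of the 71 ribosomal protein genes among them. On the high-signal scale RPLP2 stood at -0.68 (SE 0.16, edgeR adjusted p = 0.0560), RPLP1 at -0.40 (SE 0.19, edgeR adjusted p = 0.188) and RPLP0 at -0.11 (SE 0.26, edgeR adjusted p = 0.767), and none passed. RPSA, the small-subunit protein also known as the laminin receptor, took 1.62% and 1.42% in shFABP4, against 2.29% and 2.39% in pLKO, and its estimate was -0.34 (SE 0.16, edgeR adjusted p = 0.195).

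Several pairs of paralogs divided their fragments differently between the groups. RPL22L1, an alternative to RPL22 that is not among the 81 genes, supplied 86.3% and 87.8% of the pair's fragments in shFABP4, against 99.1% and 98.7% in pLKO. RPL22 itself, a protein of the large subunit's surface, had 72 and 2222 fragments in shFABP4, against 83 and 205 in pLKO, but 36.0 of the 72 were estimated background. With those removed, the share of RPL22L1 in the library labelled shFABP4 1 was 92.5%, still below both pLKO libraries. Without that library RPL22 rose by 2.87 on the log2 scale (SE 0.20, edgeR adjusted p = 0.000445), a fit of 1 library against 2 in which the lone library is assumed to vary like the pLKO libraries. RPS27L, a paralog of RPS27 known as a p53 target, supplied 14.5% and 12.7% of its pair in shFABP4, against 22.2% and 22.2% in pLKO. RPS27L itself took similar shares of the ribosomal protein fragments (0.362% and 0.254% in shFABP4, against 0.266% and 0.266% in pLKO), whereas RPS27 took 2.13% and 1.75% in shFABP4, against 0.932% and 0.933% in pLKO.

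RPL39L supplied 11.6% and 23.1% of its pair with RPL39, a small protein of the peptide exit tunnel, in shFABP4, against 32.6% and 33.1% in pLKO. Its 20 fragments in the library labelled shFABP4 1 included an estimated 11.0 of background, and with the background removed the share there was 6.20%, outside its exact 95% counting interval of 7.25 to 17.4%. RPL26L1, also outside the 81, supplied 18.4% and 29.1% of its pair with RPL26 in shFABP4, against 9.29% and 11.0% in pLKO, the opposite direction. The groups did not overlap for any of these 4 pairs, and no test was made. Nor did they for any other pair computed, so this does not set the 4 apart. RPL7L1 supplied 18.2% and 11.98% of its pair with RPL7 in shFABP4, against 9.21% and 8.94% in pLKO. RPL36AL supplied 95.2% and 97.4% of its pair with RPL36A in shFABP4, against 99.2% and 98.98% in pLKO. RPL36A had 10 fragments in the library labelled shFABP4 1, with 19.96 expected as background. RPL3L supplied 9.95% and 0.0933% of its pair with RPL3 in shFABP4, against 0.0507% and 0.0537% in pLKO. RPL3L, the muscle paralog, had 165 and 91 fragments in shFABP4, against 9 and 15 in pLKO, with 44.9 background fragments expected in the library labelled shFABP4 1. RPL3 outnumbered it in every library. RPL10L had 1 fragment in the library labelled shFABP4 1 and 0 in each of the others.

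**Figure D4:**
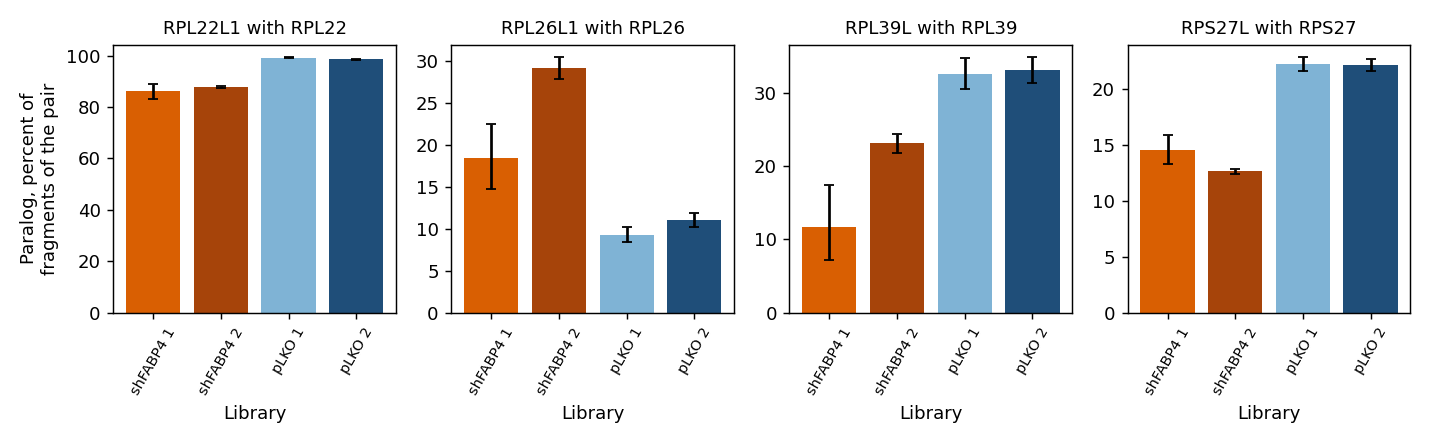
Fragments of 4 paralogs as a percent of the fragments of the paralog and its partner in each library, with exact 95% counting intervals; the vertical axes differ between panels. RPL22L1, RPL39L and RPS27L are lower in both shFABP4 libraries and RPL26L1 is higher (18.4% and 29.1% in shFABP4, against 9.29% and 11.0% in pLKO).

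Tested with all 4 libraries over the 14735 genes that passed the low-count filter, 0 of the 79 ribosomal protein genes tested were called by edgeR in either direction (0% of all genes in each direction). At an unadjusted p under 0.05 edgeR listed RPL3L as higher and RPS26 as lower, against 1187 higher and 631 lower among all genes. DESeq2 called 1 ribosomal protein gene higher, RPL3L, and 2 lower, RPS26 and RPS14, among 548 and 171 genes, and limma-voom called 0 genes. Replicates varied with a coefficient of 0.683 in this fit. It was 0.205 among 1046 high-signal genes chosen from 3 libraries rather than from pLKO alone. No coefficient was recorded for the set chosen from pLKO. Log2 differences of the ribosomal protein genes ran from -2.84 for RPS26 to 4.05 for RPL3L, with a median of -0.81, against 0.34 over all genes tested. On this scale 2 of the 79 genes had both shFABP4 values above both pLKO values and 40 had both below, against 28.5% and 26.1% of the 14735 genes tested. The large and small subunits had medians of -0.79 and -0.81.

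Without the library labelled shFABP4 1, edgeR called 34 of the 79 genes higher (43.0%, against 34.2% of the 15301 genes tested) and 39 lower (49.4%, against 32.7%), the lone shFABP4 library being assumed to vary like pLKO. The median log2 difference was then -0.03, against 0.04 over all genes. RPS26 stood at -2.21, RPS14 at -2.08, RPL6 at 1.38 and RPL10A at 1.09 on the log2 scale in this comparison, which shares 3 libraries with the tests above. These values say how shFABP4 2 differs from the pLKO libraries, and no spread between shFABP4 libraries enters them. Leaving out shFABP4 2 instead sets the library labelled shFABP4 1, estimated at 54.5% background, against pLKO. The median over all genes tested was then 2.22, and the part of the background in that fit was not tested. RPL6 took 0.828% of ribosomal protein fragments in that library, against 0.297% and 0.301% in pLKO. This is the opposite direction to the RPL6 estimate from that fit, given next. Without shFABP4 2, edgeR called 1 of 80 genes higher and 77 lower (against 56.6% and 29.3% of 27830 genes tested), with a median of -3.75 and RPL6 at -2.56.

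Other parts of the translation machinery were set beside the ribosomal proteins. The 21 mRNAs listed as other TOP mRNAs include elongation and initiation factors, and also VIM, IPO5 and IPO7. Their starts were not examined for the tract here. VIM gave 2830 of their 14314 fragments and 131016 of 398318 in shFABP4, against 13811 of 60318 and 21475 of 96178 in pLKO. Summed against the fragments of the high-signal genes, the 21 stood at 3.67% and 3.34% in shFABP4, against 1.06% and 1.09% in pLKO. Only 7 of the 21 belong to that set, so these are ratios, and the background was not subtracted. EEF1A1, the factor that delivers aminoacyl-tRNA, had 10673 and 6830 CPM on the high-signal scale in shFABP4, against 1621 and 1824 CPM in pLKO. The gene was singled out after its values were seen. VIM had 6644 and 12120 CPM in shFABP4, against 2401.5 and 2428 CPM in pLKO. The larger difference was that of EEF1A1 in the library labelled shFABP4 1 and that of VIM in shFABP4 2. Of the 7 TOP mRNAs among the high-signal genes, 3 rose and 0 fell in edgeR's test (against 10.4% and 11.8% of the 1039), with a median of 1.11. They were EEF1A1 (2.34), VIM (1.96), which is also a mesenchymal marker, and EEF1B2 (1.09). Over all libraries the median of the 20 tested was 0.14 with 0 called by edgeR in either direction, also at an unadjusted p under 0.05, and without the library labelled shFABP4 1 it was 0.77 with 16 higher and 1 lower (against 34.2% and 32.7% of all genes in that comparison). EEF1D, an exchange factor for EEF1A1, had 135 and 5.43 CPM of the library total in shFABP4, against 2.23 and 3.03 CPM in pLKO, with 176 of its 344 fragments in the library labelled shFABP4 1 expected as background. EIF2S3, a subunit of the initiation factor that brings the initiator tRNA, had a log2 difference of -1.24 (edgeR adjusted p = 0.518).

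Mitochondrial ribosomal proteins, which serve the separate ribosome of that organelle, were counted in the same way. Of 32 among the high-signal genes, 0 rose and 5 fell in edgeR's test, against 10.4% and 11.8% of the 1039. The 5 were MRPL41, MRPS12, MRPL12, MRPS34 and MRPL28. The median was -0.08, and at an unadjusted p under 0.05 edgeR listed 3 as higher and 6 as lower. With the set chosen from 3 libraries, 3 of 28 rose and 5 fell, against 190 and 184 of the 1046. With the background subtracted 1 rose and 5 fell (against 15.2% and 15.1% of the 1039). After GC and length correction 1 rose and 2 fell (against 8.47% and 7.8%). Without the library labelled shFABP4 1, 19 of 76 were higher and 44 lower (against 34.2% and 32.7% of all genes in that comparison), with a median of -0.43. MRPL17 had 216 and 67.1 CPM on the high-signal scale in shFABP4, against 174 and 178 CPM in pLKO, so the groups overlapped. MRPL2 had 51.7 and 28.0 CPM on that scale in shFABP4, against 79.6 and 78.0 CPM in pLKO, its 22 fragments in the library labelled shFABP4 1 being fewer than the 35.4 expected as background. Neither passed edgeR's test over 4 libraries (adjusted p = 0.391 for both). Of the factors that escort ribosomal proteins and finish the subunits, 22 were tested and 8 were higher and 11 lower without the library labelled shFABP4 1 (against 34.2% and 32.7% of all genes in that comparison). AAMP, whose yeast homolog Sqt1 escorts the large-subunit protein Rpl10, had 239 and 188 CPM on the high-signal scale in shFABP4, against 457 and 461 CPM in pLKO. It fell by 1.12 on the log2 scale among the high-signal genes (SE 0.17, edgeR adjusted p = 0.0326). MDN1, a giant ATPase of large-subunit assembly, had 76.8 and 20.1 CPM of the library total in shFABP4, against 6.12 and 6.14 CPM in pLKO, with 144 of its 195 fragments in the library labelled shFABP4 1 expected as background.

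Of the regulators of mTORC1 and of TOP translation, 7 of 15 were higher and 6 lower in edgeR's test without the library labelled shFABP4 1 (against 34.2% and 32.7% of all genes in that comparison). EIF4G1, the scaffold of the cap-binding complex, had 648 and 171 CPM on the high-signal scale in shFABP4, against 527 and 534 CPM in pLKO, so the groups overlapped, and 143 of its 276 fragments in the library labelled shFABP4 1 were expected as background. RPS6KB2, a kinase of RPS6, had 121 and 14.5 CPM in shFABP4, against 9.57 and 7.15 CPM in pLKO, with 94.8 of its 307 fragments in the library labelled shFABP4 1 expected as background. Of the 7 ribosomal proteins whose symbols the rule does not take, 2 were higher and 3 lower, with the same shares of all genes.

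Levels ranged widely among the genes, the 90th percentile being 51.4 to 70.6 times the 10th within a library. In CPM per kb of annotated exon, RPS2 was highest in shFABP4, with 1064 and 4918, against 3744 and 3916 in pLKO. RPS21 was highest in pLKO, with 538.5 and 1693 in shFABP4, against 4773 and 4639 in pLKO. The median gene stood at 125 and 398 in shFABP4, against 328 and 330 in pLKO. RPS2, with RPS19, was also among the 5 genes with the most fragments in every library. The 10 most abundant genes supplied 38.9% and 43.4% of ribosomal protein fragments in shFABP4, against 42.3% and 42.3% in pLKO. At the other end, RPL17 had 7 and 3 fragments in shFABP4, against 1 and 8 in pLKO, and 35.5% of its exon bases also lie in exons of another gene name, most of them in the read-through gene RPL17-C18orf32. RPS10 shares 40.3% of its exon bases, most with RPS10-NUDT3, so the counts of both genes are uncertain.

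Position and gene structure varied across the set. Chromosome 19 holds 12 of the 81 genes, and RPL10, RPL36A, RPL39 and RPS4X are on the X chromosome. Genes with both shFABP4 shares above pLKO had a median GC content of 46.9% and a median of 14.5 pseudogene names each, and genes with both below had 50.03% and 5. The background in the library labelled shFABP4 1 also depended on GC content, from 3.82 fragments per kb in the lowest class to 18.8 in the highest, and its part in that contrast was not tested. The 1293 pseudogene names took 8.51% and 3.09% of the fragments of genes and pseudogenes together in shFABP4, against 2.62% and 2.92% in pLKO, with 5602 of the 10841 pseudogene fragments in the library labelled shFABP4 1 expected as background. Near-identical copies can share fragments with their parent genes.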

How the data were processed

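RNA-seq of 4 Daoy libraries was analysed, grouped by the sample labels. Per the labels' protocols, mRNA was captured on beads and fragmented with Tn5, and the submitters' processing notes name FastQC, HISAT, StringTie and GRCh38 without versions. The deposited table holds raw fragment counts, summed by gene name over GENCODE 38 exons in featureCounts 2.0.0 with no strand option, per the file headers, so a gene and an overlapping or antisense partner cannot be told apart. The exon length and positions came from the same deposited table. GC content came from GENCODE 29. Depth was 2539862 to 20431660 fragments.

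Tests used edgeR 4.0.16 (R 4.3.3; TMM scaling, minimum count 10 and total 15, robust quasi-likelihood F test, two-sided, Benjamini-Hochberg adjustment over all genes tested, threshold 0.05), and the SE is the log2 difference divided by the root of F. DESeq2 1.42.0 and limma 3.58.1 were alternatives. The background per kb in the library labelled shFABP4 1 was estimated by GC class. High-signal genes were those whose count expected from their pLKO share was at least 5 times that background. The fit was tested on simulated data. Replicate numbers were not taken to pair libraries. Across genes, the replicate 1 deviations from the group means correlated at 0.011 between shFABP4 and pLKO. This is a single correlation, and the background in the library labelled shFABP4 1 could hide a pairing from it. Members named were the 10 highest and 10 lowest, the stalk genes, RPSA, RPS4X, the L paralogs with partners, those with a mean under 20 counts, and any called among the high-signal genes; 2 were named per other list. The members and lists were chosen with earlier results of these data known. Some items named under this rule are not reported here, and protein sequences were not analysed here.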

Additional observations from a re-analysis of the deposited data

How the results depend on the processing

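Without any library left out, the count of all genes called higher by edgeR (0) was 68 without the low-count filter, 24 with a replicate block, 190 and 108 among high-signal genes chosen from 3 libraries and from pLKO, and 548 in DESeq2. The count called lower (0) was 1, 4, 184, 123 and 171 in the same settings, and 3 when scaled by the ribosomal protein genes. Ribosomal protein genes called higher (0) were 14 and 9 in the high-signal sets and 1 in DESeq2, and those called lower (0) were 5, 4 and 2. The numbers share only a number: the replicate block called 0 ribosomal protein genes, with a median log2 difference of -1.29. Leaving out 1 library at a time gave 0 to 15744 genes higher and 0 to 8151 lower, 0 to 34 ribosomal protein genes higher and 0 to 77 lower, medians of -3.75 to -0.033, and summed shares differing by -11.2 to 1.82 percentage points, the extremes coming without an shFABP4 library. Among the high-signal genes, genes higher (108) became 190 with the set from 3 libraries, 0 with total-count scaling and 0 to 468 with a library left out. Genes lower (123) became 81 with GC and length correction, 190 with the replicate block, 2 with total-count scaling and 0 to 482 with a library left out. Ribosomal protein genes higher (9) became 14 with the set from 3 libraries, 21 with the background subtracted, 16 with the replicate block (against 13.6% of all genes there), 0 with total-count scaling and 0 to 49 with a library left out. Those lower (4) became 2 with the background subtracted, 0 with total-count scaling and 0 to 19 with a library left out. Their median (0.46) became 0.34, 0.59, 0.29 and -0.45 with the set from 3 libraries, the background subtracted, GC and length correction and total-count scaling, and 0.40 to 0.47 with a library left out.

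Single genes changed sign as follows in log2 difference, and the cause was not tested. With the replicate block, RPL10A was -0.43, RPL11 -0.49, RPL3 -0.90, RPL32 -0.51, RPL41 -0.29, RPS15A -0.62 and RPS27 -0.41. In limma-voom, RPL10A was -0.97, RPL11 -1.05, RPL3 -1.49, RPL32 -1.04, RPL41 -0.91, RPL6 -0.46, RPS15A -1.20 and RPS27 -0.79. RPS27 was -0.0099 with RLE scaling and in DESeq2, and RPS15A was -0.090 with GC and length correction. RPS4X was 0.075 with upper-quartile scaling, 0.54 with total-count scaling, 1.06 scaled by the ribosomal protein genes, 0.31 with the background subtracted and 1.21 and 1.33 in the high-signal sets. RPL39 was 0.32 scaled by the ribosomal protein genes and 0.46 and 0.58 in the high-signal sets, RPS27L was 0.21, 0.36 and 0.48 in the same settings, and RPL10 was 0.12 in the set from pLKO. With 1 library left out, the ranges were -3.15 to 1.09 for RPL10A, -3.30 to 1.12 for RPL11, -1.05 to 2.87 for RPL22, -4.01 to 1.01 for RPL3, -3.33 to 1.10 for RPL32, -1.49 to 1.56 for RPL36A, -3.47 to 1.69 for RPL41, -2.56 to 1.38 for RPL6, -3.51 to 1.07 for RPS15A, -2.84 to 0.82 for RPS27 and -2.73 to 0.69 for RPS4X. Among the high-signal genes, RPL10 was -0.0010 with the set from 3 libraries and -0.83 with total-count scaling, RPL39 was -0.34 with total-count scaling, RPS27L was -0.043 with GC and length correction and -0.45 with total-count scaling, and with 1 library left out RPL26 ranged from -0.98 to 0.23 and RPLP0 from -0.41 to 0.22. The alternatives applied to the high-signal test as a result of its own were chosen after seeing the data. With 1 library left out of a pair, the lone library is assumed to vary like the other group. In the library labelled shFABP4 1, 11 genes lay within 5 times the estimated background.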
